A study of Zea mays with 24 samples.

Results

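The difference between the mid-leaf (segment +4) and the tip (segment +10) of the leaf was described in maize plants carrying the dct2-1 mutation in pDCT2, a gene for a plastid dicarboxylate transporter. Members were chosen by a rule on level: a gene was kept when its FPKM value was at least 5 in the mutant at +4 or at +10. FPKM is the number of sequenced fragments per kilobase of transcript, corrected for the size of the library, so it can be compared between genes as a level per length. Of 39634 genes listed, 11756 were kept.

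The study sampled leaves of the inbred strain W22, wild type and dct2-1, at 9 days. Plants had 16 h of light a day at 500 umol of photons per square metre per second, at 28 degrees C and 40% humidity. The labels list 24 RNA-seq libraries in 8 groups of 3, and each library was made from 15 pooled plants. The 6 libraries of the mutant gradient are the 3 of dct2-1 at +4 and the 3 of dct2-1 at +10, and the 6 wild-type libraries of the same segments serve for comparison. Segments are named by their distance from the ligule, the hinge between sheath and blade, of leaf 2. Segment +4 is lit, photosynthetic tissue in which the leaf matures, +10 is the fully differentiated tip, -4 is the base of the blade and -1 is the zone where the blade changes from importing to exporting sugar.

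Maize fixes carbon by the C4 pathway. Mesophyll cells first bind CO2 into 4-carbon acids, and malate then moves to the bundle sheath, where CO2 is released next to Rubisco. Plastid dicarboxylate transporters carry malate and related acids across the chloroplast envelope, and pDCT2 is the form of the bundle sheath. A maize leaf grows from its base, so its tip holds the oldest cells, and age in leaves is known to bring breakdown of chlorophyll and protein and export of nitrogen.

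The deposited tables, 1 per segment, give a single FPKM value per gene for each of the groups q1 and q2, pooled by the authors over the libraries of a group. The tables do not name the genotypes. Group q2 was taken as dct2-1 because pDCT2 (GRMZM2G086258, on chromosome 1 from 181868559 to 181880941, on a genome build that was not given in the sources used here) was low in it, at 8.91 FPKM at +4 and 9.50 FPKM at +10 against 633 and 310 in q1. That low level chose the group and is no finding. The gradient is log2 of the tip level over the mid-leaf level of q2, each with 1 FPKM added after scaling. Because the tables of the segments were normalized separately, each was first scaled to the median of its kept genes (13.9 FPKM at +4 and 16.0 at +10).

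With 1 pooled value per group there is no SD, and the gradient itself has no test, so genes are described as higher or lower at the tip. As a guide to error, an upper bound on the standard error of each log2 ratio was taken from the test statistics that the authors deposited for q2 against q1 within each table, and it is given after the ± sign. It assumes that groups vary independently and leaves out the scaling between tables. Its median was 0.47 over 11714 genes. Read depth per library is unknown. In leaf segments, a lower level can come from fewer cells of a type or from less RNA per cell, and these cannot be told apart.

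The markers fixed for cell types were read in q2 first. The 4 mesophyll markers with a usable value summed to 8060 FPKM at +4 and 6080 at +10, and the 7 bundle sheath markers to 11520 and 10930. The sum of 9 wax and epidermis genes was 71.7 and 65.3. Of 11 meristem and ligule genes, 7 were listed at 0 in both segments, among them KN-1 and lg3, and the homeobox genes knox6 and knox7 carried nearly the whole sum of 34.2 and 33.4. The part of these shifts in the gene results below was not tested. Summed over all genes, q2 held 629078 FPKM at +4 and 672724 at +10. The gene pdk1, dropped below for its status, entered these sums as 0 at +4 and as 22645 FPKM at +10, so they are not compared.

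Status in the +4 table dropped 3 genes, 2 of them central to C4. The gene pep1, for the carboxylase that first fixes CO2 in mesophyll cells, had 9116 FPKM at +4 and 5336 at +10 in q2. In q1 it was listed at 0 at +4 and had 10125 FPKM at +10. The gene pdk1, for the enzyme that regenerates the substrate of that carboxylase, was listed at 0 in q2 at +4 and had 22645 FPKM at +10. Both genes carried the status for too much data to test at +4, so no rise or fall is read from their values. CCR (GRMZM2G131205), with 214 and 152 FPKM, had a failed test at +4. At the edge of the rule, GRMZM2G007283 was kept with 5.003 and 4.71 FPKM (log2 ratio -0.24), and GRMZM2G094255 was left out with 4.23 and 4.9998 FPKM (log2 ratio 0.04).

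Most of the mutant transcriptome was alike in the mid-leaf and the tip, in that 96.1% of kept genes lay within 2-fold. At the tip 202 genes (1.72% of those kept) were 2-fold or more higher and 258 (2.19%) were 2-fold or more lower. Past 4-fold there were 34 higher and 40 lower. The middle of the spread ran from -0.72 at the 5th percentile to 0.61 at the 95th on the log2 scale. Without scaling the tables, ratios shifted up by a median of 0.18 and the split turned to 306 higher and 180 lower. Then 63.0% of the 2-fold genes were higher instead of 43.9%. Of genes with an error bound, 101 of 184 higher ones and 177 of 246 lower ones had a ratio larger than 2 bounds. The shares of 1.72% higher and 2.19% lower stand beside every count of list members given below. A gene under 5 FPKM in 1 segment was kept only through the other, so such counts are partly set by the filter.

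Very abundant transcripts were mostly lower at the tip after scaling. Of 84 genes that reached 1000 FPKM, 67 had a ratio below 0 and the median log2 ratio was -0.32, with 0 of them 2-fold higher and 2 lower. Since ratios shift up by a median of 0.18 without scaling, the number below 0 depends on the scaling. In q1 the same genes had a median of -0.44, so the pattern was not particular to q2. Genes of 100 to 1000 FPKM had a median of -0.06, and those of 5 to 20 FPKM had a median of 0.00, with 115 of 6674 higher and 153 lower. The genes higher at the tip had a median of 4.14 FPKM at +4 and 15.6 at +10. The genes lower at the tip had a median of 15.1 FPKM at +4 and 5.59 at +10. These medians follow from the choice by ratio and from a filter that either segment can pass, so nothing is read from them.

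**Figure D1:**
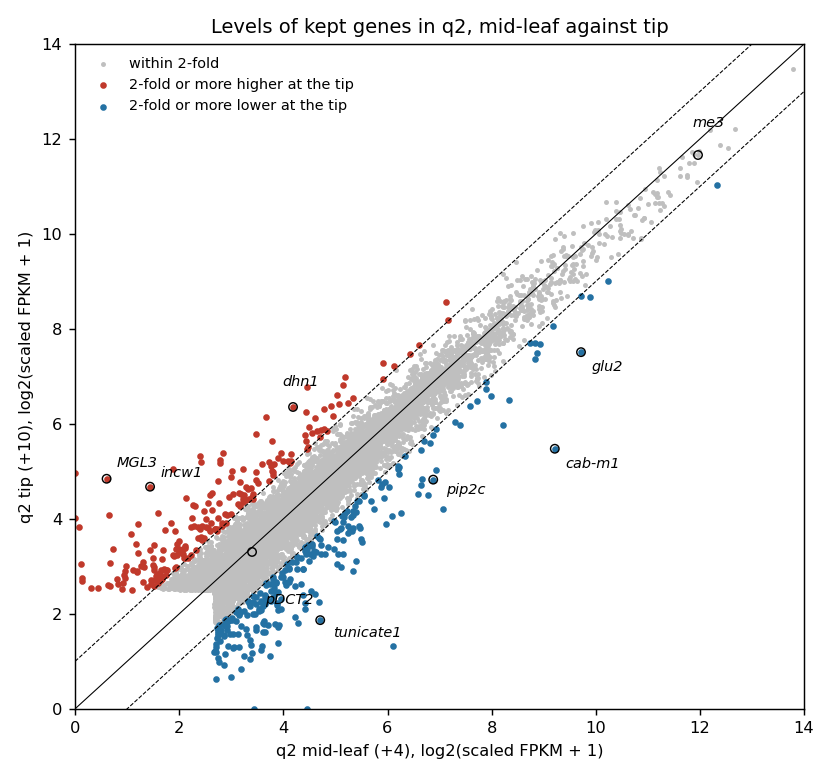
Level of each of the 11756 kept genes in q2 at the mid-leaf (x axis) and the tip (y axis), as log2 of scaled FPKM plus 1, with 1 point per gene; the solid line marks equal levels and the dashed lines 2-fold. The 202 genes higher at the tip lie on or above the upper dashed line and the 258 lower ones on or below the other, with cab-m1 and glu2 among the abundant genes lower at the tip.

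Among genes with a usable symbol, MGL3 (GRMZM2G096475, chromosome 6 from 161966267 to 161967646) had the highest ratio, with 0.486 FPKM at +4 and 29.7 at +10 (log2 ratio 4.24, 18.9-fold with the pseudocount of 1 FPKM, and a log2 ratio of 5.49 with 0.1). The authors did not test it at +4, so it has no error bound. The cell wall invertase gene incw1 (chromosome 5 from 169454597 to 169459090), whose product splits sucrose outside the cell, went from 1.60 FPKM to 26.3 (log2 ratio 3.24 ± 0.56). The mid-leaf level of incw1 was thus near the pseudocount, and its ratio exceeded 5 error bounds.

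Other members of the sucrose list differed less. Of 13 kept genes of sucrose synthesis, export and cleavage (of 17 listed), 1 was 2-fold higher and none was 2-fold lower. The 1 was incw1, kept only through its tip level, and the median log2 ratio was 0.13. The sucrose transporter sut1, which loads the phloem, had 278 FPKM at +4 and 296 at +10. The vacuolar invertase ivr2 was on the other side, with 49.3 and 35.7 FPKM (log2 ratio -0.65).

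The alternative oxidase gene Aox, for a mitochondrial bypass of electron transport, went from 0.0918 FPKM to 6.12 (log2 ratio 2.61). Its mid-leaf level was far below the pseudocount of 1 FPKM, which sets the size of the ratio: it was 4.87 with a pseudocount of 0.1 and 1.07 with 5. The chitinase genes chiI and chitinase (GRMZM2G453805), whose products cut the chitin of fungal walls, had log2 ratios of 2.40 ± 1.00 and 2.03 ± 0.69, and that of chiI was 3.44 with a pseudocount of 0.1. Both were near or below 2 FPKM at +4 and reached 7.90 and 13.5 FPKM at the tip. LIP had a log2 ratio of 2.68, from 1.22 to 14.8 FPKM, but its error bound of 7.82 was larger than the ratio. NAC20, a transcription factor of the NAC family, went from 0.0882 FPKM to 5.83 (log2 ratio 2.56, no error bound, 4.83 with a pseudocount of 0.1 and 1.04 with 5). It was the 1 kept NAC gene of 7 past 2-fold. It passed the filter of 5 FPKM only at the tip, so nothing is read from that count.

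The gene thi1, for a step in making the thiazole part of thiamine, went from 1.03 FPKM to 12.6 (log2 ratio 2.60 ± 0.68, and 3.30 with a pseudocount of 0.1). ALDH7, of the aldehyde dehydrogenase family, had 9.48 FPKM at +4 and 57.6 at +10 (log2 ratio 2.30 ± 0.45). CNR2, of the cell number regulator family, went from 0.868 to 6.53 FPKM (log2 ratio 1.88, and 0.90 with a pseudocount of 5). ZIP4, of a family of zinc and iron transporters, went from 3.41 to 14.1 FPKM (log2 ratio 1.61 ± 0.53), and the glutathione transferase gene gst7 from 5.30 to 16.4 (1.29 ± 0.56).

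Most kept senescence and autophagy genes had ratios above 0, and the 3 past 2-fold act in the breakdown of chlorophyll and protein. Of 23 listed genes 18 were kept, 16 of them had a ratio above 0, 3 were 2-fold higher and 0 were 2-fold lower. The median log2 ratio was 0.31, beside 0.00 over all kept genes, and was smaller than the median error bound of the list, 0.42. In q1 the same 18 genes had a median of 0.36, with 3 of them 2-fold higher, so higher levels at the tip were not particular to q2. The stay-green gene SGR2, of the family that starts chlorophyll breakdown, went from 3.49 FPKM to 16.3 (log2 ratio 1.77 ± 0.64). The protease gene ccp1 went from 19.996 to 64.2 FPKM (1.44 ± 0.40), and see2b, for a vacuolar processing enzyme, from 8.16 to 26.3 (1.39 ± 0.42). All 3 exceeded 2 error bounds, and SGR2 passed the filter of 5 FPKM only at the tip. Below 2-fold were see1, for another cysteine protease, at 19.8 and 44.7 FPKM (0.95), and lls1, for the oxygenase that opens the chlorophyll ring, at 84.3 and 131 (0.43). The autophagy gene Atg8e, whose product coats autophagosomes, had 113 and 192 FPKM (0.57), and the lowest ratio in the list was that of Atg10 (-0.39).

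Genes of nitrogen assimilation showed a mixed picture. Of 12 kept members (of 20), gln3, for a glutamine synthetase, was 2-fold higher, from 3.08 FPKM to 10.5 (log2 ratio 1.33 ± 0.85), and 0 were 2-fold lower. The gene gln3 passed the filter of 5 FPKM only at the tip. The glutamine synthetase gene gln2 had 29.5 and 58.3 FPKM (0.77), and the asparagine synthetase gene asn3, at a far higher level per length, had 628 and 1058 (0.55). In contrast gln1 had 150 and 126 FPKM (-0.45), and the list median was 0.11.

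Dehydrins, small proteins that protect cells from drying and are induced by abscisic acid, were higher in 2 of 3 kept genes (of 5 listed, whose median with no filter on low values was 0.07). The gene dhn1 (chromosome 6 from 137142552 to 137144384) went from 16.1 FPKM to 86.6 (log2 ratio 2.17 ± 0.46), and RAB15 from 79.3 to 189 (1.05 ± 0.42). The third, dhn2, had 96.6 and 117 FPKM (0.07).

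Of the hormone lists, that of cytokinin and ethylene held 1 gene 2-fold higher, that of auxin 0 in either direction, and that of gibberellin 1 lower. Over all kept genes 1.72% were 2-fold higher and 2.19% lower, and nothing is read from counts this small. CKX10, for a cytokinin oxidase that breaks down the hormone, went from 13.95 to 38.7 FPKM (log2 ratio 1.22 ± 0.48), while 10 other kept genes of cytokinin and ethylene lay within 2-fold. Among 15 kept aquaporins, channels for water and small solutes, PIP2-6 went from 4.43 to 16.1 FPKM (1.48 ± 0.59) and TIP3-1 from 11.4 to 28.5 (1.07 ± 1.34). The plasma membrane aquaporin pip2c moved the other way, from 109 to 29.3 FPKM (-2.05 ± 0.39). The median of the aquaporins was 0.17. The homeobox gene HB127 went from 1.73 to 7.40 FPKM (1.47 ± 0.75) and was the 1 of 10 kept homeobox genes past 2-fold. It passed the filter of 5 FPKM only at the tip, so nothing is read from that count.

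Levels in the base and transition segments of q2 placed these genes along the whole blade. Of the 202 genes higher at the tip, 166 had their highest scaled level of the 4 segments at +10, 23 at -4 and 13 at -1. The choice of these genes by ratio left out +4 as highest segment and favoured +10, so nothing is read from the 166. SGR2 had a scaled FPKM of 0.0657 at -4, 0.806 at -1, 3.73 at +4 and 15.2 at +10, a steady order from base to tip. By contrast MGL3 stood at 0.451, 0.575 and 0.521 in the first 3 segments and at 27.7 at the tip. PIP2-6 and RAB15 were highest at the base, at 18.4 and 719, and so had a low in the middle of the leaf.

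Genes lower at the tip most often had their highest level in the transition zone. Of the 258, 151 stood highest at -1, 51 at -4 and 56 at +4. The choice of these genes by ratio left out +10 as highest segment and favoured +4. Over all 11756 kept genes, where no segment was left out by ratio, the numbers were 2217 at -1, 4380 at -4, 2251 at +4 and 2908 at +10. Every kept gene had to reach 5 FPKM at +4 or +10. Genes with high levels only at -4 or -1 are thus missing from both sets.

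**Figure D2:**
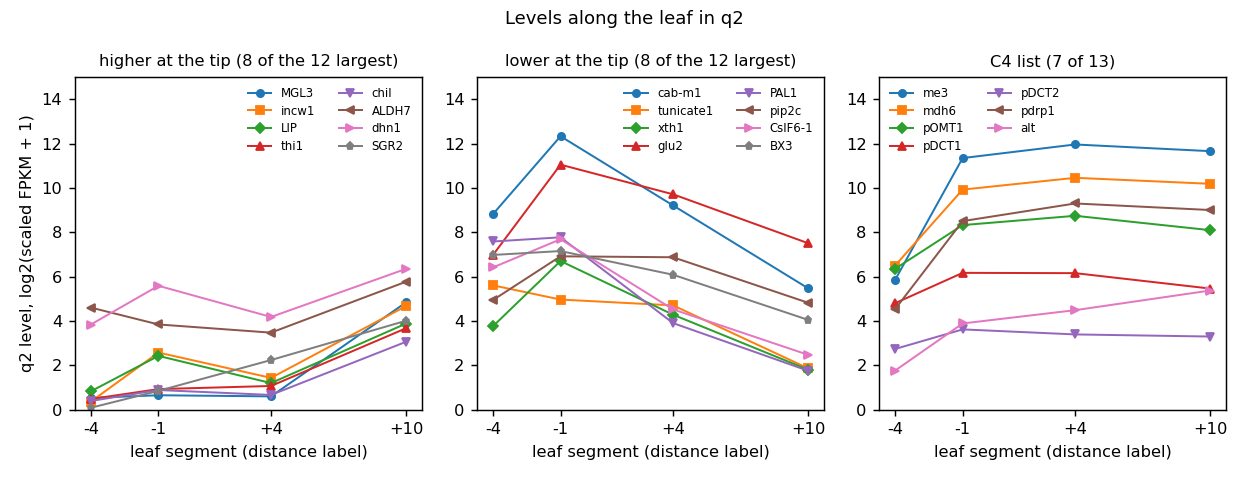
Scaled level of named genes in q2, as log2 of scaled FPKM plus 1, at the 4 leaf segments, with 1 pooled value per point. The genes in the left panel are highest at +10 (dhn1 reaches 80.9 scaled FPKM), and most in the middle panel are highest at -1 (cab-m1 at 5162). The C4 genes in the right panel differ by less than 2-fold between +4 and +10, with the widest step at alt (21.5 and 40.6).

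Genes of cell wall synthesis were lower at the tip in 7 of the 9 kept members of their list (of 31 listed), with a median log2 ratio of -1.42 and no kept member above 0. With no filter on low values the median over the listed genes was -0.07 in q2. In q1 the 9 kept genes had a median of -2.03, with 7 of them 2-fold lower, so lower levels at the tip were not particular to q2. The xyloglucan endotransglucosylase gene xth1, for an enzyme that loosens and rejoins wall polymers, went from 17.3 FPKM to 2.67 (log2 ratio -2.48 ± 0.53). CslF6-1, for a synthase of mixed-linkage glucan, went from 20.6 to 4.89 FPKM (-2.05 ± 0.44). The cellulose synthase genes CesA-7 and CesA-2 went from 41.1 to 11.6 and from 9.48 to 2.31 FPKM (-1.93 ± 0.40 and -1.82 ± 0.45). The expansin genes expa1 and EXPA5, for proteins that loosen walls, had ratios of -1.42 and -1.05. The smallest difference in the list was that of cesa10, at 46.5 and 43.9 FPKM (-0.28). CesA-4, which the symbol search of the list missed, was also lower, from 10.4 to 2.19 FPKM (-1.996 ± 0.45), as was the exoglucanase gene exg1, from 29.4 to 7.75 (-1.98 ± 0.41).

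Tubulins, the subunits of microtubules, made up the 3 genes past 2-fold among 15 kept genes of DNA replication, division and cytoskeleton (of 45). The gene tua5 went from 10.6 to 2.61 FPKM (-1.85 ± 0.59), tub3 from 18.1 to 5.56 (-1.72 ± 0.46) and tub4 from 5.33 to 2.15 (-1.16 ± 0.63). The other kept tubulins lay within 2-fold. TUA2 had 95.1 and 71.3 FPKM (-0.60), tua4 had 37.7 and 34.6 (-0.31), and tua6 had 5.55 and 6.92 (0.10). The list median was -0.24 in q2. In q1 the same 15 genes had a median of -0.37, with 5 of them 2-fold lower. Of 10 kept histone genes 1 was 2-fold lower, the centromeric histone gene cenH3, from 9.00 to 3.19 FPKM, with an error bound of 2.85 that was larger than its ratio of -1.42. Over all kept genes 2.19% were 2-fold lower, and nothing is read from 1 of 10.

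Light harvesting genes were mostly lower at the tip in the mutant, with the lowest ratio at cab-m1 (GRMZM2G351977, chromosome 8 from 141641841 to 141643727), a gene for a chlorophyll-binding antenna protein. It had 553 FPKM at +4 and 46.6 at +10 (log2 ratio -3.74 ± 0.48, 13.3-fold). Of 14 kept genes of the antennae and photosystems (of 16), 13 had a ratio below 0, 3 were 2-fold lower and 0 were 2-fold higher, with a median of -0.51. In q1 the same 14 genes had a median of -0.63, with 2 of them 2-fold lower, so lower levels at the tip were not particular to q2. The photosystem I gene psad1 went from 235 to 101 FPKM (-1.40 ± 0.41), and the antenna gene lhcb3 from 452 to 220.0 (-1.23 ± 0.48). Other antenna genes stayed within 2-fold: lhcb6 had 1748 and 1017 FPKM (-0.98), and Cab-m7, the most abundant of the list, had 6136 and 5055 (-0.48). Chlorophyll-binding genes are close copies of each other, and the counting of shared reads was not described in the labels, which leaves values of single members uncertain.

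Defence metabolism differed by pathway. Benzoxazinoids are the hydroxamic acid toxins of young grasses, and 2 of 6 kept genes of their synthesis (of 10) were 2-fold lower. BX3, for a cytochrome P450 of the pathway, went from 62.6 to 16.7 FPKM (-2.03 ± 0.42), and bx1 (chromosome 4 from 3256233 to 3258478), for its first step, from 28.4 to 10.0 (-1.60 ± 0.46). BX4 and BX5 had ratios of -0.50 and -0.66, and bx9, for a glucosyltransferase that stores the toxin, had 28.4 and 39.7 FPKM (0.28). The beta-glucosidase gene glu2 was among the abundant genes with a large ratio, with 785 FPKM at +4 and 194 at +10 (-2.21 ± 0.43).

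PAL1, for the entry step of phenylpropanoid and lignin synthesis, went from 13.1 to 2.55 FPKM (-2.15 ± 0.52), and the other 3 kept genes of that list lay within 2-fold. Among 13 kept TIFY and JAZ genes, repressors of jasmonate signalling, TIFY4 went from 31.1 to 13.9 FPKM (-1.29 ± 0.49) and TIFY25 from 19.3 to 9.12 (-1.18 ± 0.55). The list had 11 ratios below 0 and a median of -0.25, and over all kept genes 2.19% were 2-fold lower. Kept genes of jasmonate synthesis, 6 of 25, all lay within 2-fold, as did 96.1% of all kept genes. The lipoxygenase gene lox10 had 527 and 794 FPKM (0.39). Of 5 kept proteinase inhibitors 4 had ratios above 0, with MPI at 1100.0 and 1739 FPKM (0.46).

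The remaining genes in this group of large ratios were the MADS-box gene tunicate1, from 23.5 to 2.83 FPKM (-2.84 ± 0.70), AUX35, from 23.0 to 4.05 (-2.42 ± 0.50), and the P450 gene CYP714B3, from 5.18 to 0.587 (-2.08 ± 0.80). CYP88A1, for a step of gibberellin synthesis, had 7.45 and 3.32 FPKM (-1.13 ± 0.59), and -0.97 without scaling. The wax gene gl1 had 43.0 and 23.2 FPKM (-1.05 ± 0.39), and -0.86 without scaling. In the other direction CER1, for a step of wax alkane synthesis, had 5.11 and 13.7 FPKM (1.09 ± 0.98).

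The kept C4 genes lay within 2-fold between mid-leaf and tip, apart from 1 identifier. Over all kept genes 96.1% did so, so this is no trait particular to C4. The genes pep1 and pdk1 had been dropped for their status at +4, and no ratio is read for them. Of 15 listed genes 13 were kept, 11 had a ratio below 0, and the median was -0.30. In q1 the same 13 genes had a median of -0.41. The NADP-malic enzyme gene me3, whose product releases CO2 from malate in bundle sheath chloroplasts, had 3729 FPKM at +4 and 3468 at +10 (log2 ratio -0.30 ± 0.59). The gene mdh6, for the malate dehydrogenase of mesophyll chloroplasts, had 1315 and 1249 FPKM (-0.27 ± 0.48). The regulator of pyruvate phosphate dikinase, pdrp1, had 589 and 550.0 FPKM (-0.30 ± 0.42). These ratios were smaller than their error bounds.

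Transporters of the chloroplast envelope had ratios below 0 that stayed within 2 error bounds. The oxaloacetate and malate antiporter gene pOMT1 had 400.4 FPKM at +4 and 293 at +10 (-0.65 ± 0.42), and pDCT1 had 65.9 and 46.2 (-0.70 ± 0.39). The mutated gene itself, pDCT2, had a ratio of -0.10 ± 0.44, which turned to 0.08 without scaling. The gene alt, by its symbol, had 20.1 and 43.5 FPKM (0.89 ± 0.67, and 1.08 without scaling). GRMZM2G094712, listed by identifier and without a symbol in the name table, was the 1 kept member 2-fold higher, from 34.4 to 92.4 FPKM (1.21 ± 0.41). Another such identifier, GRMZM2G121878, at 5535 and 3854 FPKM, had the lowest ratio of the list (-0.72 ± 0.69).

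Genes of the Calvin-Benson cycle and carbohydrate storage were within 2-fold in all kept members, beside 96.1% of all kept genes. The 2 rbcS genes, for the small subunit of Rubisco, had 2301 and 2152 FPKM at +4 and 1712 and 1986 at +10 (-0.62 and -0.31). The Rubisco activase gene rca1 had 1726 and 1839 FPKM (-0.11), and rca3 had 349 and 556 (0.48). The median over 7 genes was -0.31. Over 7 kept starch synthesis genes the median was -0.18, from -0.39 for GBSSIIa to 0.08 for ss1.

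Cell maintenance and regulatory lists showed small ratios in q2. All 30 kept ribosomal protein genes lay within 2-fold, with a median of -0.02 that turned to 0.17 without scaling. The 14 kept heat shock protein genes had ratios from -0.44 to 0.44 and a median of -0.26. In q1 the same 14 genes had a median of 0.19, with 4 of them 2-fold higher. The 9 kept heat shock factors had a median of 0.13 in q2. Of 20 kept MYB, 15 bZIP, 11 AP2/EREBP, 7 bHLH and 4 WRKY factors, 0 were past 2-fold in either direction. Over all kept genes 96.1% lay within 2-fold, so nothing particular to these lists is read from such counts. The medians of the NAC, WRKY, bHLH, bZIP, auxin, anthocyanin and bundle sheath lists were below 0 and turned above 0 without scaling. Of 8 kept plastid genome genes 7 had ratios above 0, with a median of 0.68, but their median error bound was 0.81.

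**Figure D3:**
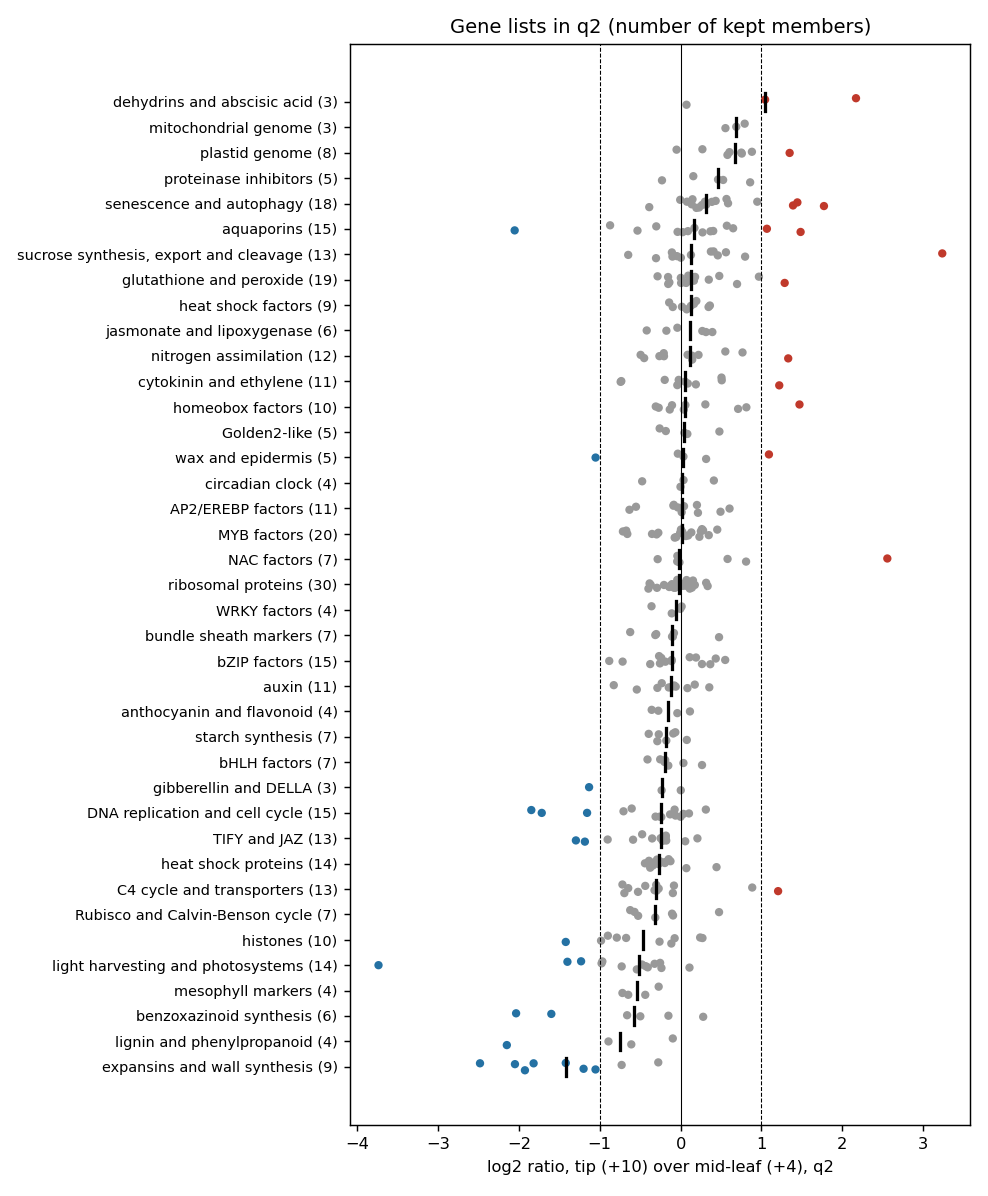
Log2 ratio of tip over mid-leaf in q2 for each kept member of the gene lists with at least 3 kept members; each point is a gene, the bar is the list median, the dashed lines mark 2-fold, and points are spread vertically at random for view. Among kept members, wall synthesis has a median of -1.42 over 9 of 31 listed genes and dehydrins 1.05 over 3 of 5; with no filter on low values these medians were -0.07 and 0.07.

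The same step was then set beside q1, the group taken as wild type, which shares no libraries with q2. The q1 gradient was wider: of 12160 kept genes 412 (3.39%) were 2-fold or more higher at the tip and 798 (6.56%) lower, and the SD of the log2 ratio over genes was 0.64 against 0.46 in q2. Across the 10821 genes kept in both groups the gradients had a Pearson correlation of 0.61, given as a description, since genes are not independent replicates and levels of a segment come from 1 table. Among those genes, 83 of 151 higher at the tip in q2 were also 2-fold higher in q1, where 331 were. Likewise 140 of 232 lower in q2 were lower in q1, where 469 were. Opposite directions past 2-fold were seen in 6 genes higher and 5 lower in q2.

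Whether the step itself differed between groups was tested gene by gene, as the difference of the log2 ratios of q2 to q1 at +10 and at +4 over its standard error (two-sided normal test, Benjamini-Hochberg adjustment over 15993 genes). It called 76 genes (0.475%), 34 with a higher gradient in q2 (0.213%) and 42 with a lower one (0.263%). With 3 pooled samples a group the normal distribution is an approximation, so calls are counted and no p is printed. With the implied standard errors multiplied by 1.5, 0 genes were called higher and 1 lower, with 148 genes at an unadjusted p under 0.05 in the same normal test. Of the 184 tested genes 2-fold higher at the tip in q2, 13 were called higher than in q1, and of the 246 lower ones 16 were called lower. The choice of those genes by their q2 ratio favours that direction, so nothing is read from it.

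Among the genes with a lower gradient in q2 were cab-m1 and bx1, each the 1 called member of its list (of 14 tested genes of light harvesting and 6 of benzoxazinoid synthesis). Differences above 0 that were not called stood beside them, such as 0.91 for lhcb3 and 0.67 for bx9. In q1 cab-m1 had 7679 FPKM at +4 and 2565 at +10, so that it was lower at the tip in both groups, by more in q2 (difference -1.99, called). The gradient of bx1 ran opposite ways, from 237 to 890.4 FPKM in q1 against 28.4 to 10.0 in q2 (difference -3.41, called). For the ferritin gene fer1, which stores iron, q2 had 745 and 547 FPKM and q1 had 148 and 727 (difference -2.75, called). The chaperone gene hsp82 had 133 and 117 FPKM in q2 and 6.36 and 29.9 in q1 (difference -2.41, called). On the log2 scale the q2 ratios of fer1 and hsp82 were nearer to 0 than those of q1.

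K2.1, RADIALIS and bss1 were the other called genes with a symbol under the rule for naming. K2.1 had 6.16 and 2.50 FPKM in q2 and 10.8 and 19.1 in q1 (difference -2.11). RADIALIS had 46.7 and 40.3 FPKM in q2 and 158 and 588 in q1 (difference -2.11). The abundant gene bss1 had 593 and 560.3 FPKM in q2 and 1462 and 5787 in q1 (difference -2.07). The small heat shock protein gene hsp18, named outside that rule after its values were seen, had 708 and 1105 FPKM in q2 and 31.1 and 180 in q1 (difference -1.89, called). With hsp82 it made 2 called genes among 14 tested heat shock protein genes.

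In the other direction, thi1 and dhn1 were higher at the tip in q2 by more than in q1. In q1 thi1 had 11.4 and 19.2 FPKM (difference 2.86, called), and its level at the tip was thus nearer between the groups than in the mid-leaf. In q1 dhn1 had 13.8 and 21.0 FPKM (difference 1.83, called). For sus1, for a sucrose synthase, q2 had 3.07 and 5.24 FPKM and q1 had 23.1 and 5.75 (difference 2.78, the 1 called of 13 tested genes of the sucrose list). The gene dhn2 had 266 and 68.5 FPKM in q1 beside its near-level values in q2 (difference 2.23, called). With dhn1 it made 2 called genes among 3 tested in the dehydrin list.

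The glutathione transferase gene gst19 had 27.4 and 32.9 FPKM in q2 and 37.6 and 12.2 in q1 (difference 1.89, the 1 called of 19 tested genes of its list). The gene les22, for a decarboxylase of heme and chlorophyll synthesis, was lower at the tip in both, from 47.3 to 21.2 FPKM in q2 and from 103 to 15.8 in q1 (difference 1.55, called). For pDCT2 the difference of 1.12 was not called. The senescence genes SGR2, ccp1 and see2b had log2 ratios of 1.70, 1.71 and 1.27 in q1 beside 1.77, 1.44 and 1.39 in q2, and their differences were not called.

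**Figure D4:**
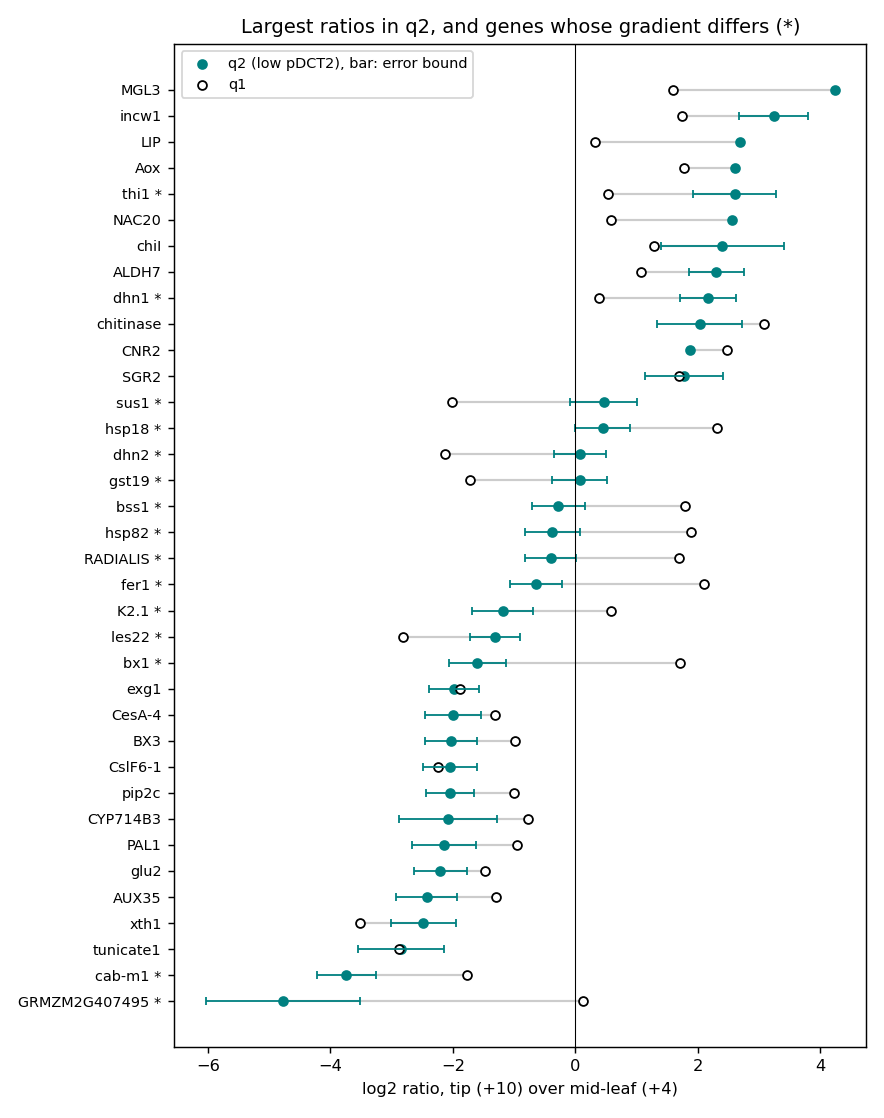
Log2 ratio of tip over mid-leaf in q2 (filled) and q1 (open) for the genes with the largest ratios in q2 and the named genes whose gradients differ, marked by an asterisk; bars are the error bound of the q2 ratio, not drawn for MGL3, Aox, NAC20 and CNR2, which have none, nor for LIP, whose bound is 7.82. The gradient of bx1 is -1.60 in q2 and 1.71 in q1, while those of SGR2 and tunicate1 nearly coincide.

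The highest and the lowest ratio among all kept genes belonged to genes without a symbol, GRMZM2G498613 and GRMZM2G407495. GRMZM2G407495 (chromosome 10 from 73282624 to 73283205) had 63.1 FPKM at +4 and 1.61 at +10 in q2 (log2 ratio -4.77 ± 1.26), while q1 had 270.2 and 337 FPKM, and this difference of -5.61 was called. GRMZM5G887393 had 19.7 FPKM at +4 and was listed at 0 at +10. GRMZM2G498613 and AC214635.3_FG006 were listed at 0 at +4 and had 32.2 and 16.3 FPKM at +10. No fold is given for these 3, since a listed 0 can also be a failed estimate.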

How the data were processed

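RNA-seq libraries of maize leaf segments were processed with GSNAP, an aligner, and Cuffdiff, a program for comparing groups, per the submitters' processing notes. Their versions, the build and the annotation were not given in the sources used here. Submitting 1 table per segment, the authors deposited an FPKM value per gene for groups q1 and q2, pooled over 3 libraries each, a test statistic (a signed score) and p-values and q-values, per the file headers. Fold changes were recomputed from FPKM. Read depth is unknown, strand and shared reads were not described, and p-values rest on the authors' estimate of the spread between pooled samples.

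Genes were joined by identifier across the +4 and +10 tables, those with a HIDATA or FAIL status were dropped, and those with at least 5 FPKM in q2 at either segment were kept. Each column was scaled to the median of its kept genes, and both were brought to the geometric mean of the medians. Ratios are log2 with a pseudocount of 1 FPKM, which understates the ratio of low genes; past 2-fold means a log2 ratio of at least 1 in size. The error bound is the square root of the summed squares of 2 standard errors, each the deposited log2 fold change of q2 over q1, recomputed, divided by its statistic. The difference of gradients was called at an adjusted p under 0.05; an unadjusted p under 0.05 was held by 627 genes. The scripts were tested on simulated data.

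Members, lists and the rule for named genes were chosen with earlier results of these data known. The 40 lists by symbol or identifier and 2 by chromosome used names from a RefSeq table of assembly Zm-B73-REFERENCE-NAM-5.0; the table matched 18775 identifiers and gave 2595 a usable symbol, 1292 of them kept; 49 list entries whose symbol names another gene or is ambiguous were removed, 1 after its values were seen. Named genes were those of the C4 list, the 12 largest ratios in each direction, up to 4 members per list past 2-fold, and the 6 largest called differences in each direction, 71 in all. Others given as list examples were chosen after their values were seen. A planned motif search of promoters was not run. Python 3.11.15, numpy 2.4.6, pandas 2.3.3, scipy 1.17.1 and matplotlib 3.10.9 were used.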

Additional observations from a re-analysis of the deposited data

Results flagged for a closer look

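The following 15 genes were marked because the step from mid-leaf to tip differed between q2 and q1 in the test of the difference (two-sided normal test, Benjamini-Hochberg adjustment over 15993 genes); values are log2 differences, q2 minus q1. The differences were negative for GRMZM2G407495 (-5.61), bx1 (-3.41), fer1 (-2.75), hsp82 (-2.41), K2.1 (-2.11), RADIALIS (-2.11), bss1 (-2.07), cab-m1 (-1.99) and hsp18 (-1.89). They were positive for thi1 (2.86), sus1 (2.78), dhn2 (2.23), gst19 (1.89), dhn1 (1.83) and les22 (1.55). The 15 are those printed out of 76 called: most by the rule for named genes, GRMZM2G407495 as an extreme ratio without a symbol, and hsp18 after its values were seen.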

How the results depend on the processing

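No paired analysis was possible because the deposited columns are pooled per group and carry no replicate number. For the same reason no library could be left out, and a planned fit with a replicate block was not run. Depth per library is unknown. The genes 2-fold or more higher at the tip in q2 numbered 202 and those lower 258. They became 94 and 126 with a pseudocount of 5 FPKM, 364 and 400 at a minimum of 1 FPKM, 88 and 102 at 20 FPKM, and 351 and 429 with no filter. They became 637 and 876 at 1.5-fold, 34 and 40 at 4-fold, and 306 and 180 with no scaling. Of the list members, 17 were higher and 22 lower, against 32 higher at a minimum of 1 FPKM, 31 higher with no filter, and 9 higher and 11 lower at 20 FPKM. Differences from q1, 34 higher and 42 lower, became 16 and 27 at an adjusted p under 0.01, and 0 and 1 in the normal test with standard errors multiplied by 1.5, where 148 genes had an unadjusted p under 0.05 (627 with the errors as implied). Pseudocount 0.1, the 2 other scalings and status OK in both tables left the counts of genes within 1.5 times. Of 606 values of named genes under alternatives, 47 counted as moved, 19 of them with a pseudocount of 5 FPKM and 7 with 0.1. A value counted as moved when it changed by more than its error bound. MGL3, Aox, NAC20 and CNR2 have no bound and counted as moved at any change, so the 47 overstate the moves past a bound. With no scaling, for example, the 4 moved values were those of these genes. No named gene or list median past 2-fold changed sign in any alternative. Of 345 list medians 3 moved by more than the median error bound of their members, the wall, dehydrin and lignin lists with no filter, at -0.07, 0.07 and 0.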
